A study of Mus musculus with 22 samples.

Results

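The ovary of the juvenile mouse was compared at postnatal day 7 (P7) and postnatal day 21 (P21), ages that lie before puberty. Whole ovaries of wild-type CD1 mice, an outbred stock, had been dissected in cold salt solution and frozen, and their total RNA was sequenced in bulk. The comparison used 4 of the 22 libraries of a series of 11 ages, 2 from P7 and 2 from P21, each assigned by the age in its own label. The labels name no treatment, transgene or Cre line for any group. The libraries of P14 and P60, from the same stock and tissue, are given only for their levels or side by side. Of 34745 genes in the table, 16117 reached 1 FPKM (fragments per kilobase of transcript, scaled to the depth of the library) in at least 2 of the 22 libraries, and all of these were tested. Whether the paired libraries are from different animals is not in the labels. The p-values rest on a spread between paired libraries that was shared over all 22 libraries and 11 ages, and this spread may be technical.

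In the first postnatal weeks the mouse ovary goes from primordial follicles and the first wave of growing follicles to large preantral and early antral follicles. An oocyte in a growing follicle stores RNA and protein and lays down the egg coat, the zona pellucida. Granulosa cells around it divide, secrete inhibins and activins, answer to follicle-stimulating hormone (FSH) and convert androgen into estradiol. Theca cells outside the basement membrane answer to luteinizing hormone (LH) and make androgen. Corpora lutea form only after ovulation, which begins at puberty.

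The labelled tissue carried its own markers at both ages. The granulosa hormone subunit gene Inha stood at 831 and 926 FPKM at P7 and at 2201 and 2253 at P21, and the oocyte gene Zp3 at 342 and 343 and at 36.4 and 42.5. The 4 libraries held an estimated 14910000 to 16800000 reads, at which 1 FPKM of a 2 kb transcript stands for 29.8 to 33.6 reads. The log2 values of the replicates correlated across genes with Pearson r of 0.988 at P7 and 0.991 at P21, where genes are not independent replicates. The replicates of the 2-year-old ovaries, which enter the shared spread behind the tests, were less alike, with r of 0.94. Their median SD over genes was 0.195 on the log2 scale, against 0.076 at P7 and 0.06 at P21. Markers of fat cells were uneven between replicates, with a summed level of 171.3 and 128.4 FPKM at P7 and 63.6 and 28.9 at P21.

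At P21, 1460 genes were higher than at P7 (9.06% of those tested) and 2536 were lower (15.7%), together 24.8%, by limma on log2(FPKM + 1) with Benjamini-Hochberg adjustment over all genes and a threshold of 0.05. A change of at least 1 on this scale was reached by 407 of the higher genes (2.53%) and 663 of the lower ones (4.11%). The median change over all genes tested was -0.04. FPKM are relative to the rest of a library, and the split between directions depended on the scaling. Higher genes made up 36.5% of the calls on the deposited scale, 43.8% with median-of-ratios scaling and 47.4% with quantile normalization, and the latter called 1941 genes higher and 2156 lower. The libraries of P7 and those of P21 did not overlap for 11057 genes (68.6%), so a lack of overlap by itself is common here. A fit without the 2-year-old libraries called 1954 genes higher and 3204 lower. Leaving out 1 of the 4 libraries lowered the calls, most so for P21 replicate 1, but such a fit leaves 1 library at that age. The standard error is then wider, so a call lost in this way, here and below, need not mean a different change.

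**Figure D1:**
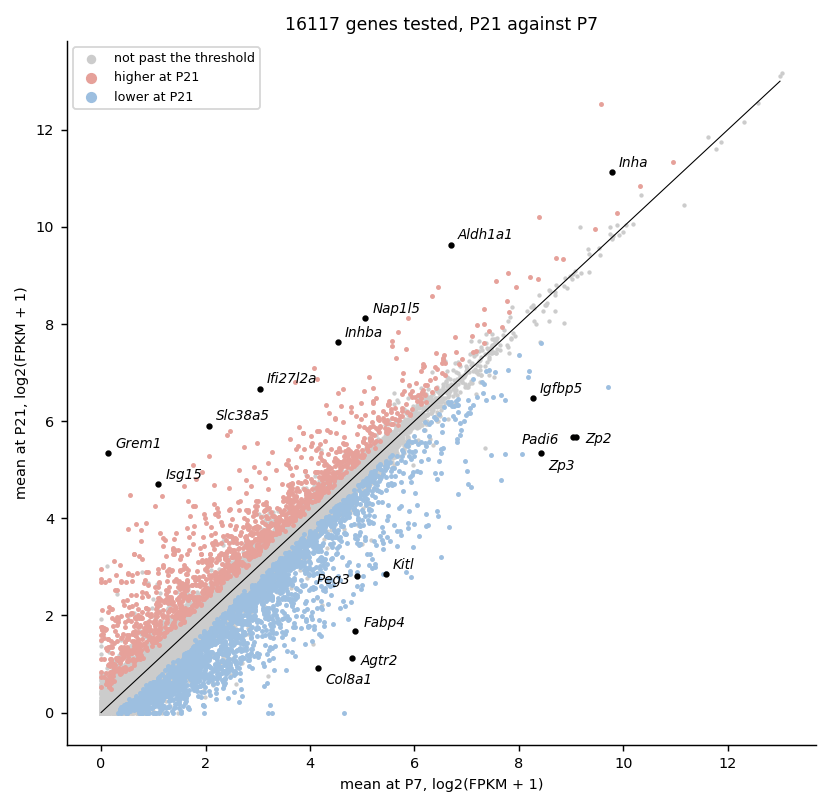
Mean of the 2 libraries at P7 (horizontal) and at P21 (vertical) for each of the 16117 genes tested, both as log2(FPKM + 1). Red genes were called higher at P21, blue genes lower and grey genes neither, the line marks equal levels, and black points name genes described in the text. Grem1 and Isg15 lie far above the line near the left edge, and Zp2, Padi6 and Zp3 lie below it among the abundant genes.

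Among the 8 largest increases of genes that reach 10 FPKM, 3 are interferon-induced genes (Ifi27l2a, Isg15 and Ifit3), and the largest is that of Grem1, which encodes a secreted antagonist of bone morphogenetic proteins (BMPs). Grem1 (ENSMUSG00000074934, mm10 chromosome 2, 113746164 to 113758646, minus strand) stood at 0.115 and 0.0758 FPKM at P7 and at 39.2 and 39.7 at P21. It has 1 annotated transcript of 4148 bases, so the P7 values stand for about 8.01 and 5.0 reads and those of P21 for about 2720 and 2460. Its change was 5.21 ± 0.23 (log2, SE; limma, adjusted p = 4.69e-09). At P14 the gene was still at 0.184 and 0.0924 FPKM.

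The other 4 of the 8 are Slc38a5, Crabp2, Car14 and Serpina3a. The amino acid transporter gene Slc38a5 rose from 3.20 ± 0.00274 to 59.1 ± 0.533 FPKM (SD, n = 2 libraries in each group, here and below), and the retinoic acid binding protein gene Crabp2 from 2.41 ± 0.890 to 33.0 ± 2.10. Car14, which encodes a membrane-bound carbonic anhydrase, rose from 4.51 ± 0.112 to 54.4 ± 1.86 FPKM, with 16.4% of its words shared with other genes (the share of 31-base words that also occur in transcripts of other genes). Serpina3a, of a serine protease inhibitor family, rose from 4.34 ± 0.733 to 51.4 ± 5.25 FPKM after standing at 0.249 and 0.229 at P14.

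The 8 largest decreases hold the oocyte genes Zp2, Padi6 and Zp3. Agtr2, the type 2 angiotensin receptor gene, was at 27.8 and 25.9 FPKM at P7 and at 1.38 and 1.01 at P21. The groups lie far apart, and the gene fell by 3.67 ± 0.34 (log2, SE; limma, adjusted p = 2.85e-06). Col8a1, a network-forming collagen chain gene, fell from 16.8 ± 3.90 to 0.885 ± 0.266 FPKM. Dppa5a, a gene of germ cells and pluripotent cells, fell from 89.6 ± 3.44 to 8.24 ± 1.68 FPKM, but 57.2% of its 31-base words also occur in transcripts of other genes, so its level is uncertain. Car3 and Fabp4, which fat cells express, complete the group, but lost their calls without P7 replicate 1 (adjusted p = 0.128 and 0.081) or P21 replicate 2 (0.298 and 0.128), and are described with the fat genes.

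The genes were further read through 36 lists of cell types and pathways with 593 tested genes. The lists overlap, and genes such as Inhba, Grem1 and Wnt4 are counted in several, so the counts are not independent of each other. Each list is given by its counts and median change, beside all genes tested, where 9.06% were higher and 15.7% lower with a median of -0.04. In the plot of the lists, oocyte, imprinted and matrix lists extend to the left, and granulosa, theca, macrophage and interferon lists to the right.

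**Figure D2:**
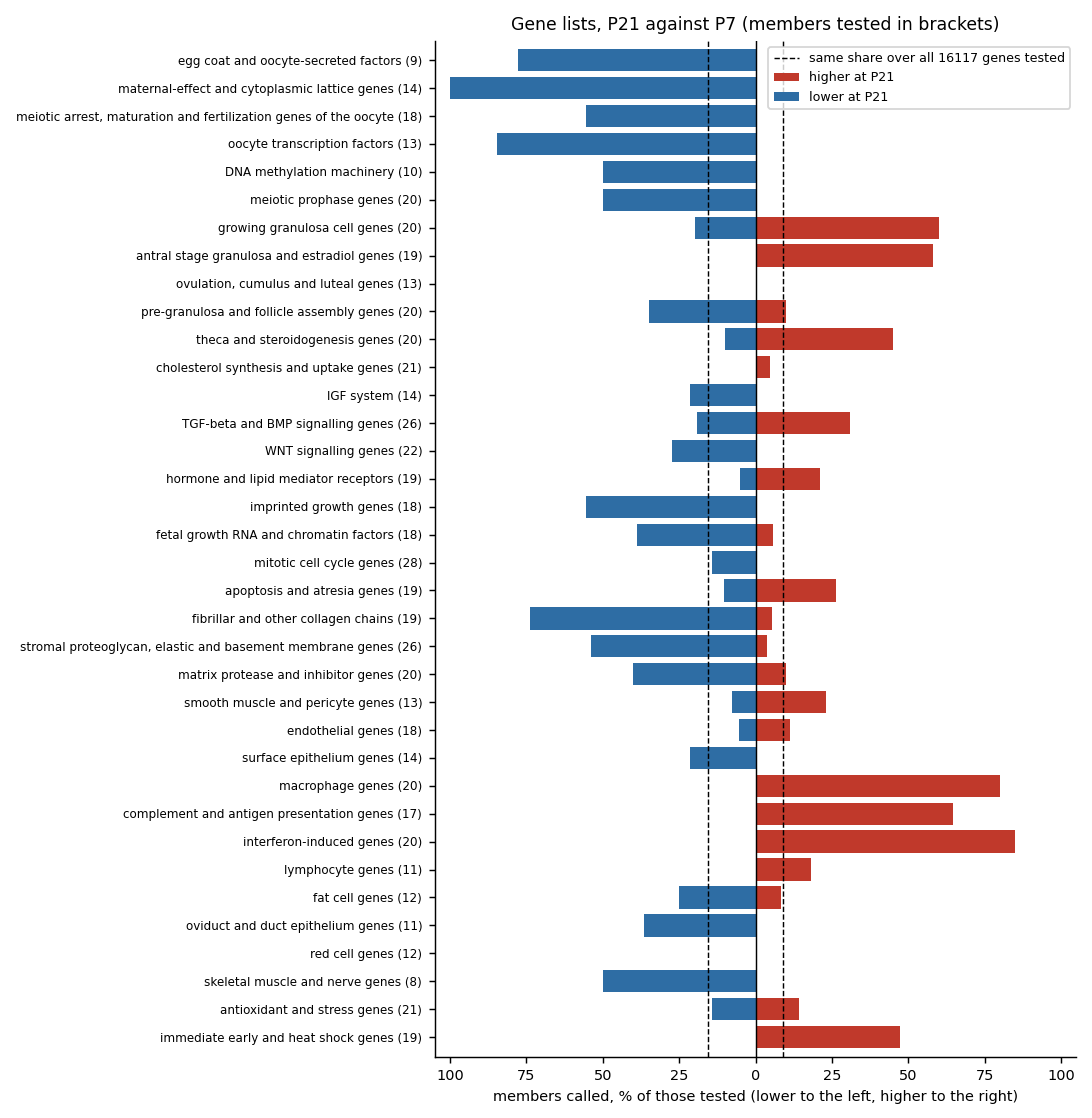
Share of the tested members of each list called lower (blue, to the left) or higher (red, to the right) at P21 than at P7, in percent, with the number of members tested in brackets. Dashed lines mark the same shares over all 16117 genes tested, 15.7% lower and 9.06% higher. All 14 maternal-effect members tested were lower and 17 of 20 interferon-induced members were higher.

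Of 9 tested genes of the egg coat and of oocyte-secreted factors, 7 fell, with a list median of -2.16. Zp2, an egg coat glycoprotein gene (ENSMUSG00000030911, chromosome 7, 120126772 to 120145291, minus strand), was at 533 and 562 FPKM at P7 and at 46.6 and 53.1 at P21. It fell by 3.43 ± 0.39 (log2, SE; limma, adjusted p = 1.5e-05). Zp3 fell from 342 ± 0.397 to 39.4 ± 4.29 FPKM, 8.68 times less (limma, adjusted p = 8.08e-05), and Zp1 from 101 ± 8.36 to 13 ± 1.78. At P14 Zp3 was still at 424 and 317 FPKM. In bulk tissue, a cell type's share and its RNA per cell cannot be told apart, here and for every gene below. Since FPKM are relative to the rest of a library, a share can fall without fewer cells of the type.

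The promoter of Zp3 is shown because this gene has one of the largest decreases and because E-boxes (CANNTG, the same letters on both strands) are the kind of site bound by Figla, a factor known to act on the zona genes. The 250 bases before its start (RefSeq, GRCm38.p6, chr5:135979855-135980104, plus strand, 5′ to 3′) are given with the E-boxes in capitals, which begin at bases -181, -134 and -55 counted from the start.
Zp3: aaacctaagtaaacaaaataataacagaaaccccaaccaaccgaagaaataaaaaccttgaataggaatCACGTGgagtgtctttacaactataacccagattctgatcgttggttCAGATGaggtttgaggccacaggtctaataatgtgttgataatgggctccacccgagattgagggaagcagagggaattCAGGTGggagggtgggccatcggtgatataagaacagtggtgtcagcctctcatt
An E-box was present in a promoter of all 5 genes of the egg coat list that were matched. The same held for 7056 of 11272 tested genes that were matched (62.6%), so these letters are common.

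The oocyte-secreted growth factors moved by unequal amounts. Gdf9, which with Bmp15 acts on granulosa cells, was at 187 and 163 FPKM at P7 and at 35.0 and 41.9 at P21, and fell by 2.16 ± 0.38 (log2, SE; limma, adjusted p = 0.000653). Bmp15 stood at 34.0 and 28.4 FPKM at P7 and at 16.6 and 18.4 at P21, a change of -0.80 that did not pass (limma, adjusted p = 0.061), although the groups do not overlap. It passed with quantile normalization (adjusted p = 0.0474), in a fit of the 4 libraries alone (0.0226) and in a fit without the 2-year-old (Y2) libraries (0.00114). The ratio of Bmp15 to Gdf9 FPKM within a library was 0.182 and 0.175 at P7, 0.155 and 0.162 at P14, and 0.476 and 0.438 at P21. Zp3 over Gdf9 went the other way, at 1.83 and 2.11 at P7 and at 1.04 and 1.01 at P21. Over the 34 genes of the egg coat, maternal-effect and transcription factor lists with at least 5 FPKM at P7, the P7 level was 0.878 to 11.0 times the P21 level, with a median of 5.25.

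All 14 tested maternal-effect and cytoplasmic lattice genes fell, with a list median of -2.32. Their summed level was 1804 and 1686 FPKM at P7, 2187 and 1687 at P14, and 287.2 and 337.7 at P21. Padi6, a component of the oocyte's cytoplasmic lattices (ENSMUSG00000040935, chromosome 4, 140727355 to 140742643, minus strand), was at 541 and 502 FPKM at P7 and at 44.4 and 55.7 at P21, 10.4 times less. Npm2, a histone chaperone of the egg, fell from 201 ± 23.9 to 26.8 ± 2.04 FPKM, and Nlrp14 from 265 ± 2.61 to 39.1 ± 1.80. Nlrp5, a core gene of the subcortical maternal complex, fell from 112 ± 16.4 to 21.5 ± 3.61 FPKM (limma, adjusted p = 0.000595). Zar1l, which had the smallest change of the list at -0.91, lost its call without P7 replicate 1 (adjusted p = 0.207), P21 replicate 1 (0.1) or P21 replicate 2 (0.129). Khdc3, Zar1 and Dppa3 share 36.7%, 41.4% and 29.6% of their words with other genes, so their own levels are uncertain.

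Of 13 oocyte transcription factors and related factors, 11 fell, with a median of -1.65. Figla fell from 20.7 ± 1.6 to 2.52 ± 0.768 FPKM, Sohlh1, a germ cell bHLH factor, from 17 ± 0.437 to 2.08 ± 0.661, and Nobox, an oocyte homeobox factor, from 41.4 ± 1.57 to 6.25 ± 0.340. Their changes were -2.64, -2.56 and -2.55 (log2; limma, adjusted p = 6.93e-06, 4.62e-06 and 5.5e-06). Not past the threshold were Foxo3, the brake on primordial follicle activation, at 15.2 ± 0.29 and 12.2 ± 0.56 FPKM (limma, adjusted p = 0.034 in a fit of the 4 libraries alone and 0.0166 without the Y2 libraries), and Taf4b, a TFIID subunit used in germ cells, at 8.35 ± 0.039 and 9.51 ± 0.69.

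Genes of meiotic arrest, maturation and fertilization showed smaller changes, with 10 of 18 lower and a median of -0.65. Ybx2, which stabilizes stored mRNA, fell from 27.2 ± 1.47 to 4.42 ± 0.286 FPKM, and Mos, the kinase that holds the egg in metaphase, from 18.6 ± 3.90 to 4.89 ± 0.357. Wee2, an oocyte inhibitor of CDK1, fell from 9.20 ± 0.858 to 3.05 ± 0.0140 FPKM. Gpr3, the receptor that keeps cAMP high in the oocyte, was at 1.05 and 1.03 FPKM at P7 and at 0.429 and 0.467 at P21 (limma, adjusted p = 0.00149). Gja4, the connexin of the oocyte's gap junctions, fell from 31.2 ± 1.73 to 13.5 ± 0.158 FPKM. Bub1b, Plk1 and Ccnb1, which dividing somatic cells also use, did not pass, with 18.7% and 27.8% of the words of Plk1 and Ccnb1 shared and with Bub1b at a mean of 19.6 FPKM at both ages.

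Of 20 meiotic prophase genes, 10 fell, with a median of -0.47. Smc1b, a meiotic cohesin gene, was at 5.60 and 7.71 FPKM at P7 and at 0.929 and 1.56 at P21, and fell by 1.77 ± 0.18 (log2, SE; limma, adjusted p = 6.68e-06). Sycp3, of the synaptonemal complex, fell from 15.5 ± 0.998 to 2.82 ± 0.384 FPKM, with 46.5% of its words shared with other genes. Syce1 fell from 4.43 ± 0.552 to 1.14 ± 0.859 FPKM, and its call was lost in a fit of the 4 libraries alone (adjusted p = 0.061). Stra8, which opens meiosis in the fetal ovary, was listed at 0 in all 4 libraries.

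Of 10 genes of the DNA methylation machinery, 5 fell, with a median of -0.40. Kdm1b, a histone demethylase needed for maternal imprints, was at 27.3 and 25.5 FPKM at P7 and at 6.53 and 6.6 at P21, and fell by 1.86 ± 0.10 (log2, SE; limma, adjusted p = 3.08e-08). Dnmt1, the maintenance methyltransferase, fell from 90.0 ± 3.93 to 39.9 ± 2.95 FPKM, and its recruiting partner Uhrf1 from 51.1 ± 0.836 to 17.6 ± 1.03, with 24.2% of the words of Uhrf1 shared with other genes. Dnmt3l, the cofactor of methylation in growing oocytes, fell from 1.69 ± 0.0244 to 0.673 ± 0.266 FPKM. Dnmt3a, which lays down methylation in the oocyte, differed widely between replicates, at 10.7 and 5.79 FPKM at P7 and 3.10 and 8.68 at P21.

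**Figure D3:**
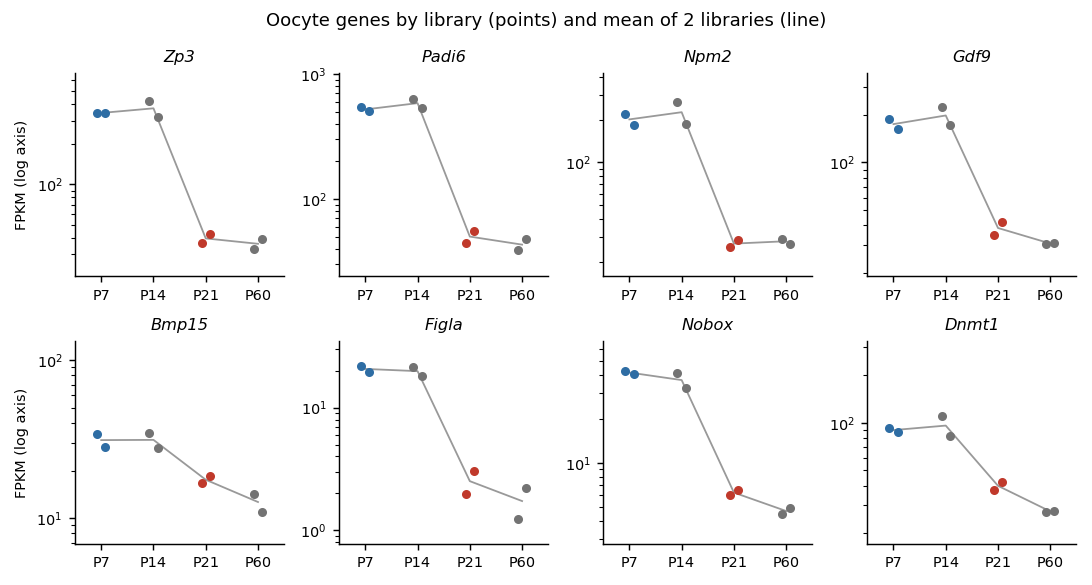
FPKM of 8 oocyte genes in each library (points) and the mean of 2 libraries (line) at P7, P14, P21 and P60, on logarithmic axes, with ages evenly spaced whatever their distance in days. P7 is blue, P21 red and the others grey. In every panel the largest step lies between P14 and P21, and the drop from P7 to P21 is smallest for Bmp15, from a mean of 31.2 to 17.5.

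Among 20 tested genes of growing granulosa cells 12 rose and 4 fell, with a median of 1.02 and a summed level of 2111 and 2324 FPKM at P7 and of 5320 and 5458 at P21. Without P21 replicate 1 the genes that fell were 2. Inhba, the activin A subunit gene (ENSMUSG00000041324, chromosome 13, 16011851 to 16031621, plus strand), was at 13.8 and 30.5 FPKM at P7, 6.45 and 8.26 at P14, and 193 and 200 at P21. All P21 values lie well above the P7 values although those differ from each other, and the change was 3.19 ± 0.37 (log2, SE; limma, adjusted p = 2.16e-05).

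The other inhibin and activin genes moved in the same direction by smaller amounts. Inhbb, the activin B subunit gene, rose from 86.5 ± 36.0 to 434 ± 30.9 FPKM, and Inha, the shared inhibin subunit gene, by 1.34 (log2; limma, adjusted p = 2.33e-06). Fst, whose product follistatin binds activin, rose from 46.4 ± 6.73 to 199 ± 8.01 FPKM. Within a library the ratio of Inhba to Inha FPKM was 0.0166 and 0.0329 at P7, 0.00748 and 0.00946 at P14, and 0.0877 and 0.0888 at P21.

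Hsd17b1, which reduces estrone to estradiol, was at 51.4 and 64.5 FPKM at P7 and at 267 and 290 at P21, and rose by 2.25 ± 0.22 (log2, SE; limma, adjusted p = 4.25e-06). Esr2, the estrogen receptor of granulosa cells, rose from 19.9 ± 0.333 to 54.1 ± 1.08 FPKM. The gap junction gene Gja1, through which granulosa cells are coupled, rose from 335 ± 21.7 to 1183 ± 17.4 FPKM. Fshr, the FSH receptor gene, rose from 8.13 ± 0.785 to 13.4 ± 0.589 FPKM (limma, adjusted p = 0.000442), a call that was lost with a pseudocount of 0.1 (adjusted p = 0.0804). Cyp19a1, the aromatase gene, did not pass, at 6.21 and 12 FPKM at P7 and 16.2 and 14.4 at P21 (limma, change 0.75, adjusted p = 0.42).

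Among the granulosa genes that fell, Kitl encodes the signal that binds KIT on the oocyte. Kitl (ENSMUSG00000019966, chromosome 10, 100015630 to 100100416, plus strand) was at 37.7 and 47.7 FPKM at P7, 56.8 and 72.5 at P14, and 6.05 and 6.41 at P21. Its P7 mean was 6.86 times its P21 mean, a change of -2.59 ± 0.18 (log2, SE; limma, adjusted p = 2.01e-07). Gatm, an enzyme of creatine synthesis, fell from 74.1 ± 0.309 to 15.9 ± 2.09 FPKM. Amh, the hormone of small growing follicles, was at 150 and 117 FPKM at P7 and 63.8 and 87.5 at P21 (limma, change -0.81 ± 0.24, adjusted p = 0.0213). That call was lost without P7 replicate 1 (adjusted p = 0.169), without P21 replicate 1 (0.201), with a pseudocount of 0.1 (0.0532) and in a fit of the 4 libraries alone (0.077). Foxl2, a factor that keeps granulosa identity, fell from 106 ± 8.13 to 68.0 ± 2.44 FPKM, a call lost without P7 replicate 2 (adjusted p = 0.0929) or P21 replicate 1 (0.0803).

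Of 19 tested genes tied to antral stages and estradiol, 11 rose and 8 did not pass, with a median of 0.75. Nap1l5, an imprinted gene of the nucleosome assembly family, was at 20.9 and 43.9 FPKM at P7 and 276 and 277 at P21 (limma, change 3.15, adjusted p = 5.91e-07). Nppc, whose product is the granulosa signal for meiotic arrest, rose from 8.19 ± 2.76 to 34.4 ± 4.79 FPKM, and its receptor gene Npr2 from 14.2 ± 1.6 to 26.0 ± 0.646. The LH receptor gene Lhcgr did not pass, at 22 and 29.6 FPKM at P7 and 25.4 and 22.5 at P21 (limma, adjusted p = 0.966). Comp, a matrix glycoprotein gene, rose from 0.840 ± 0.389 to 2.56 ± 0.612 FPKM, but not in a fit of the 4 libraries alone (adjusted p = 0.0559).

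Among 13 tested ovulation, cumulus and luteal genes, limma called 0 at an adjusted p under 0.05 and 0 at an unadjusted p under 0.05, while a fit of the 4 libraries alone called 2 higher and 2 lower. Most of these genes were low at both ages. Akr1c18, the progesterone-clearing enzyme of the corpus luteum, was at 2.03 and 4.81 FPKM at P7 and at 0.496 and 0.457 at P21, and at 103 and 84.5 at P60. From P7 to P21 it passed only in a fit without the Y2 libraries (limma, adjusted p = 0.00354). Prlr, the prolactin receptor gene, was at 5.39 and 6.27 FPKM at P7 and at 11.3 and 10.2 at P21 (limma, adjusted p = 0.245), and passed without the Y2 libraries (0.000186) and in a fit of the 4 libraries alone (0.0183).

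Of 20 genes tied to pre-granulosa cells and follicle assembly, 2 rose and 7 fell, with a median of -0.32, and a fit without the Y2 libraries called 11 lower. Wnt4, a signal of female somatic cells (ENSMUSG00000036856, chromosome 4, 137277489 to 137299726, plus strand), was at 42.4 and 39.6 FPKM at P7 and 11.2 and 13.1 at P21, and fell by 1.68 ± 0.14 (log2, SE; limma, adjusted p = 1.16e-06). Wt1, a factor of early gonadal somatic cells, fell from 13.7 ± 0.831 to 5.09 ± 0.395 FPKM, and Emx2, a homeobox factor of the early gonad, from 17.6 ± 2.77 to 7.65 ± 0.265. Heyl, a Notch target gene, rose from 21.4 ± 0.0129 to 36.9 ± 0.476 FPKM, while Hes1, another, fell from 14.9 ± 1.33 to 7.65 ± 0.228.

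Theca and steroid genes were higher in 9 and lower in 2 of 20 tested cases, with a median of 0.70. Leaving out P7 replicate 2 left 5 higher, and leaving out any of the 4 libraries left 1 lower. Aldh1a1, a retinaldehyde dehydrogenase gene (ENSMUSG00000053279, chromosome 19, 20492715 to 20643465, plus strand), was at 104 and 102 FPKM at P7 and at 827 and 756 at P21, 7.70 times as high (limma, change 2.93 ± 0.29, adjusted p = 5.38e-06). Cyp11a1, which makes pregnenolone from cholesterol (ENSMUSG00000032323, chromosome 9, 58006411 to 58027023, plus strand), was at 49.8 and 43.7 FPKM at P7, 11.1 and 22.1 at P14, and 193 and 178 at P21. The P14 libraries lie below those of both neighbouring ages, and the change from P7 to P21 was 1.97 ± 0.46 (log2, SE; limma, adjusted p = 0.00514).

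Cyp17a1, the androgen-forming lyase, rose from 84 ± 8.4 to 169 ± 23.7 FPKM (limma, adjusted p = 0.00608), a call lost without P7 replicate 2 (adjusted p = 0.0549) or P21 replicate 1 (0.0675). Within a library Cyp17a1 over Cyp11a1 was 1.80 and 1.79 at P7 and 0.962 and 0.858 at P21. Insl3, a theca peptide hormone, stood at 42.9 and 29.3 FPKM at P7, 8.01 and 9.43 at P14, and 79.8 and 83.5 at P21 (limma, change 1.18, adjusted p = 0.00364). Its level is uncertain, since 63.1% of its words occur in other genes, and its call was lost without P7 replicate 2 (adjusted p = 0.0559) and with a pseudocount of 0.1 (0.249). Srd5a1, a steroid 5-alpha-reductase gene, rose from 7.97 ± 1.32 to 19.1 ± 0.576 FPKM, with 15.7% of its words shared. Fdxr, which feeds electrons to mitochondrial steroid enzymes, rose from 28.9 ± 0.895 to 52.3 ± 1.95. Star, the carrier of cholesterol into mitochondria, did not pass, at 29.6 and 23.2 FPKM at P7 and 15.7 and 16.6 at P21 (limma, adjusted p = 0.668), but passed without the Y2 libraries (0.0132) and in a fit of the 4 libraries alone (0.0437). Hsd3b1, which forms progesterone, was at 577 ± 12.5 and 1023 ± 28.6 FPKM (limma, adjusted p = 0.15), and passed among postnatal libraries only (0.0267) and among the 4 libraries alone (0.012).

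Of the hedgehog ligands, which granulosa cells send to the theca, Ihh was at 12.1 and 10.3 FPKM at P7 and 31.3 and 32.5 at P21 (limma, change 1.43, adjusted p = 6.6e-06). Dhh rose from 14.9 ± 0.757 to 21.6 ± 0.481 FPKM (limma, adjusted p = 0.0432), a call lost without each of the 4 libraries in turn (adjusted p 0.104 to 0.186), and 23.8% of its words are shared. The targets Ptch1 and Gli1 did not pass, with differences of -0.20 and -0.36 (log2; limma, adjusted p = 0.42 and 0.258), and Gli1 passed as lower without the Y2 libraries (0.0243). Hhip, which encodes a hedgehog-binding inhibitor, did not pass either, with a change of 0.27 (limma, adjusted p = 0.369). Gli2, a transcription factor of the pathway, fell from 6.98 ± 0.0620 to 4.74 ± 0.136 FPKM, but lost its call without each of the 4 libraries in turn (adjusted p 0.0636 to 0.0904).

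Among 21 tested genes of cholesterol synthesis and uptake, 1 rose and 20 did not pass, with a median of 0.25 and a summed level of 351.7 and 312.4 FPKM at P7 and 366.9 and 378.0 at P21. The number that rose was 9 in a fit without the Y2 libraries and 6 in a fit of the 4 libraries alone, and the call was lost without each of the 4 libraries in turn.

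**Figure D4:**
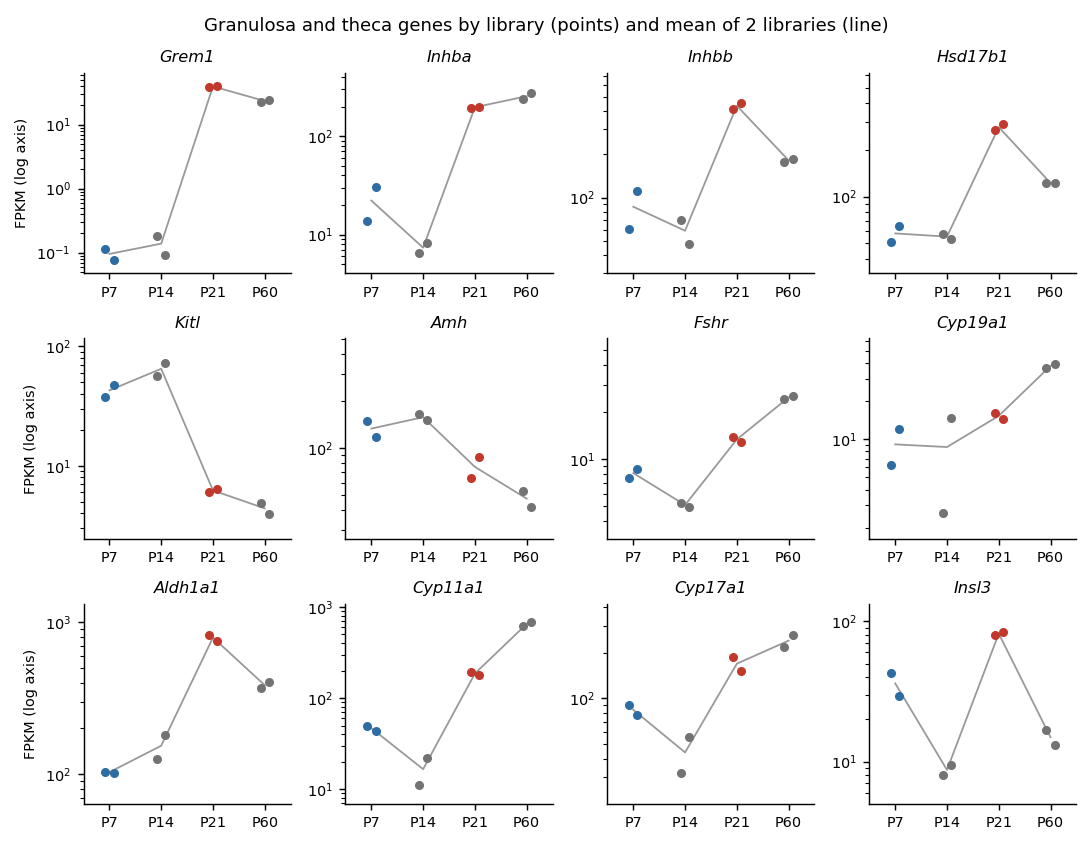
FPKM of 12 granulosa and theca genes in each library (points) and the mean of 2 libraries (line) at P7, P14, P21 and P60, on logarithmic axes with ages evenly spaced whatever their distance in days. P7 is blue, P21 red and the others grey. Grem1 stays under 0.2 FPKM at P7 and P14 and is near 39 at P21, Kitl drops to near 6, and Cyp11a1, Cyp17a1 and Insl3 dip at P14 before they are higher at P21.

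Signalling genes of the TGF-beta and BMP family moved both ways, with 8 of 26 higher, 5 lower and a median of 0.14. Without P7 replicate 2 or P21 replicate 1, 3 were lower. Beside the antagonist gene Grem1, the BMP receptor genes Bmpr1b and Bmpr2 rose. Bmpr1b was at 7.45 and 6.75 FPKM at P7 and at 30.6 and 29.3 at P21, a change of 1.93 ± 0.08 (log2, SE; limma, adjusted p = 2.07e-09), and Bmpr2 went from 19.2 ± 1.36 to 55.6 ± 1.96 FPKM. Bmpr1a did not pass, with a change of 0.15 (limma, adjusted p = 0.208), and passed with median-of-ratios scaling (0.0434). Of the ligands, Bmp2 rose from 3.92 ± 0.510 to 14.2 ± 0.582 FPKM, while Bmp7 fell from 6.53 ± 0.0409 to 1.61 ± 0.453 and Tgfb2 from 7.26 ± 0.665 to 2.70 ± 0.0470. Chrdl1, another BMP antagonist, rose from 1.08 ± 0.0706 to 3.37 ± 0.107 FPKM, and the inhibitory Smad6 from 3.20 ± 0.292 to 6.08 ± 0.246.

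WNT signalling genes were lower in 6 of 22 cases and the other 16 did not pass, with a median of -0.34, and a fit of the 4 libraries alone called 10 lower. Beside Wnt4, the ligand gene Wnt6 fell from 30.1 ± 0.697 to 10.2 ± 0.365 FPKM. The activator gene Rspo1 fell from 10.4 ± 1.28 to 4.07 ± 0.341, and Axin2, a general target of the pathway, from 6.05 ± 0.704 to 2.52 ± 0.259. Sfrp1, which encodes a secreted WNT inhibitor, was at 85.2 and 80.5 FPKM at P7 and 30.4 and 28.5 at P21 (limma, change -1.46, adjusted p = 4.08e-08). The summed level of the list was 272.8 and 253.6 FPKM at P7 and 145.0 and 142.3 at P21.

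In the insulin-like growth factor (IGF) system 3 of 14 genes fell and 11 did not pass, with a median of -0.18. Igfbp5, a binding protein gene, was at 320 and 294 FPKM at P7 and at 83.5 and 92.2 at P21 (limma, change -1.79, adjusted p = 6.61e-06). Igfbp3 fell from 16.6 ± 0.953 to 4.23 ± 1.14 FPKM. Pappa, a protease that cuts IGF binding proteins, fell from 3.20 ± 1.78 to 0.364 ± 0.00238, but lost its call without P7 replicate 2 (adjusted p = 0.0772) and in a fit of the 4 libraries alone (0.0522). Igf1 itself was level, at 21.3 ± 1.26 and 22.6 ± 0.311 FPKM (limma, adjusted p = 0.792).

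Of 19 hormone and lipid mediator receptor genes, 4 rose and 1 fell, with a median of -0.09, and 2 rose with a pseudocount of 0.1. Beside Esr2 and Fshr, the endothelin receptor gene Ednrb rose from 3.22 ± 0.0238 to 7.29 ± 0.401 FPKM. Adra1a, an adrenergic receptor gene, fell from 0.748 ± 0.0179 to 0.0719 ± 0.0176 FPKM, under 1 FPKM in all 4 libraries. With at least 1 FPKM required in 2 of these 4, 0 genes of the list fell. Esr1 and Ghr, the receptors of estrogen and growth hormone, did not pass (limma, adjusted p = 0.344 and 0.552).

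Imprinted growth genes were mostly lower at P21, with 10 of 18 called and a median of -0.86. The list does not hold the imprinted gene Nap1l5, which is counted with the antral genes and rose by 3.15 (log2). Peg3, a paternally expressed zinc finger gene (ENSMUSG00000002265, chromosome 7, 6703892 to 6730431, minus strand), was at 27.6 and 29.8 FPKM at P7 and 6 and 5.96 at P21, a change of -2.09 ± 0.11 (log2, SE; limma, adjusted p = 2.18e-08). The noncoding H19 fell from 15.4 ± 4.93 to 3.21 ± 0.938 FPKM, and Dlk1, a Notch ligand relative, from 2.85 ± 0.0429 to 0.116 ± 0.00613. Grb10, which damps insulin and IGF receptors, fell from 34.0 ± 0.370 to 17.2 ± 0.869. Igf2 did not pass, at 4.30 and 6.65 FPKM at P7 and 1.14 and 0.939 at P21 (limma, adjusted p = 0.0661), with 63.1% of its words shared, and passed under 4 alternatives, such as without the P14 libraries (0.0234). The maternally expressed noncoding Meg3 was at 13.4 ± 2.27 and 14.1 ± 1.18 FPKM (limma, adjusted p = 0.877).

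Of 18 RNA and chromatin factors of fetal growth, 7 fell and 1 rose, with a median of -0.44. Igf2bp2, an mRNA-binding protein gene, fell from a mean of 10 to 1.92 ± 0.136 FPKM. The genes of the let-7 pathway Lin28a and Trim71 fell from 2.68 ± 0.323 to 0.683 ± 0.290 and from 2.56 ± 0.358 to 0.368 ± 0.0694. The gene that rose, Sox4, went from 83.2 ± 4.67 to 118 ± 3.16 FPKM, lost its call without each of the 4 libraries in turn (adjusted p 0.0544 to 0.123) and shares 54.7% of its words. Several members of this list, such as Lin28a and Sall4, are also oocyte genes.

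Mitotic genes changed little between these ages. Of 28 tested, 4 fell and 24 did not pass, with a median of -0.13 and a summed level of 511.1 and 531.3 FPKM at P7 and 460.5 and 489.8 at P21. The number that fell was 2 without P7 replicate 1, P7 replicate 2 or P21 replicate 1, and 8 in a fit of the 4 libraries alone. Birc5, of the chromosomal passenger complex, fell from 23.2 ± 1.07 to 13.3 ± 1.37 FPKM, and the spindle checkpoint kinase gene Ttk from 8.01 ± 0.673 to 4.34 ± 0.229. Cdk1 fell from 14.9 ± 0.296 to 10.4 ± 1.05, but not without P7 replicate 1 (adjusted p = 0.0859), P7 replicate 2 (0.062) or P21 replicate 1 (0.146). The proliferation marker Mki67 was at 24.7 and 38.0 FPKM at P7 and 32.4 and 33.7 at P21 (limma, adjusted p = 0.888).

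Of 19 apoptosis and atresia genes, 5 rose and 2 fell, with a median of 0.08, and 3 rose without P21 replicate 1 or P21 replicate 2. Bcl2, a survival gene, fell from 6.69 ± 1.25 to 2.80 ± 0.321 FPKM (limma, adjusted p = 5.46e-05). Gadd45a, a damage response gene, rose from 2.02 ± 0.321 to 7.23 ± 0.885 with 17% of its words shared, Cdkn1a, the p21 cell cycle inhibitor, from 2.01 ± 0.291 to 4.46 ± 0.131, and Clu, which encodes clusterin, from 70.4 ± 3.09 to 138 ± 6.90. Trp63, which guards the oocyte genome, fell from 2.40 ± 0.0971 to 0.878 ± 0.163.

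Collagen genes were lower at P21 in 14 of 19 tested cases and higher in 1, with a median of -0.94. Their summed level was 1687 and 1639 FPKM at P7 and 982.1 and 970.7 at P21. Col1a1, the main chain of type I collagen, was at 215 and 189 FPKM at P7 and at 93.5 and 91.6 at P21 (limma, change -1.11, adjusted p = 0.000198). Col3a1 fell from 292 ± 26.2 to 130 ± 3.73 FPKM, Col18a1, a basement membrane chain, from 43.7 ± 3.08 to 11.2 ± 0.121, and Col12a1, a fibril-associated chain, from 15.6 ± 0.272 to 4.82 ± 0.481. Col14a1 fell by 1.49 (log2) but lost its call without P7 replicate 1 (adjusted p = 0.135) or P21 replicate 2 (0.0931). Col11a1 was the gene that rose, from 8 ± 0.246 to 17.2 ± 1.45 FPKM. The main basement membrane chains Col4a1 and Col4a2 did not pass (limma, adjusted p = 0.521 and 0.476), and passed as lower in a fit of the 4 libraries alone (0.0262 and 0.019).

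Among 26 stromal proteoglycan, elastic and basement membrane genes, 14 fell and 1 rose, with a median of -0.55, and 9 were lower without P21 replicate 1 or P21 replicate 2. Eln, the elastin gene, was at 56.9 and 42.4 FPKM at P7 and at 11.2 and 8.50 at P21 (limma, change -2.22, adjusted p = 4.97e-07). Postn, a matricellular gene, fell from 14 ± 1.6 to 1.66 ± 0.536 FPKM, and the elastic fibre gene Mfap4 from 89.6 ± 1.63 to 41.9 ± 0.449. The small proteoglycan gene Ogn rose from 137 ± 14 to 213 ± 16.3, but not without P7 replicate 1 (adjusted p = 0.0908) or P21 replicate 1 (0.0852).

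Of 20 matrix proteases and their inhibitors, 8 fell and 2 rose, with a median of -0.29. The number that fell was 5 without P7 replicate 1, 4 without P21 replicate 1 and 5 without P21 replicate 2, and the number that rose was 0 or 1 without any of the 4 libraries. Mmp2, a gelatinase, was at 119 and 112 FPKM at P7 and at 50.5 and 52.0 at P21 (limma, change -1.16, adjusted p = 3.1e-05). The collagen cross-linking enzyme gene Lox fell from 15.2 ± 1.11 to 4.91 ± 0.480 FPKM, its relative Loxl1 from 34.9 ± 0.0311 to 17 ± 0.862, and Adamts9 from 8.12 ± 1.27 to 3.19 ± 0.0894.

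The median changes of the vessel and muscle lists were small. Smooth muscle and pericyte genes numbered 13, of which 3 rose (23.1%, against 9.06% over all genes tested) and 1 fell, with a median of 0.17. The contractile genes Tagln, Myh11 and Lmod1 were at 93.1 ± 13.2 and 157 ± 14, 38.5 ± 3.03 and 65.1 ± 5.79, and 4.23 ± 0.280 and 8.32 ± 0.270 FPKM, with 62.2% of the words of Tagln shared. All 3 lost their calls without P7 replicate 2 (adjusted p 0.128 to 0.177) or P21 replicate 1 (0.113 to 0.192), and 1 gene of the list rose without P21 replicate 2. The pericyte gene Cspg4 fell from 4.67 ± 0.152 to 3.19 ± 0.0146 FPKM, but not without P7 replicate 1 (adjusted p = 0.0571). Among 18 endothelial genes 2 rose and 1 fell, with a median of -0.07. Tek, the angiopoietin receptor gene, rose from 5.96 ± 0.0981 to 8.36 ± 0.216 FPKM and Flt4, a receptor of lymphatic vessels, from 4.79 ± 0.215 to 7.22 ± 0.326. The junction gene Cdh5 went from 36.4 ± 1.71 to 27.2 ± 0.454 (limma, adjusted p = 0.0284), a call lost without each library in turn (0.0694 to 0.151) and with median-of-ratios scaling (0.116), and Pecam1 did not pass (0.385).

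Of 14 genes of the surface epithelium, 3 fell and 11 did not pass, with a median of -0.37. These were Epcam, Cdh1 and Upk3b, with changes of -1.34, -0.80 and -0.80 (log2; limma, adjusted p = 0.0229, 0.0185 and 0.0267). Epcam and Cdh1 lost their calls without each of the 4 libraries in turn, with changes of -1.405 to -1.273 and -0.8551 to -0.751. Upk3b lost its call without P7 replicate 1 (change of -0.6046) or P21 replicate 1 (-0.6183). Among postnatal libraries only, Epcam and Upk3b did not pass (limma, adjusted p = 0.0578 and 0.0612). In a fit of the 4 libraries alone, Upk3b did not pass either (0.0704).

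Interferon-induced genes, which cells switch on in answer to interferons and use against viruses, rose in 17 of 20 tested cases, and 3 did not pass, with a median of 2.02. Their summed level was 214.2 and 192.0 FPKM at P7 and 625.1 and 595.3 at P21. Over all genes tested, 9.06% were higher. Isg15, a ubiquitin-like protein gene (ENSMUSG00000035692, chromosome 4, 156199424 to 156200818, minus strand), was at 0.947 and 1.33 FPKM at P7, 28.1 and 7.01 at P14, and 23.8 and 26.3 at P21. The change from P7 to P21 was 3.61 ± 0.49 (log2, SE; limma, adjusted p = 8.04e-05).

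The promoters of 3 members are shown because these genes have large increases and because the interferon-stimulated response element, the kind of site bound by interferon-activated factors, can be read in them. The motif searched was GAAA, any pair of bases and GAAA again, on either strand, so that it reads TTTC, any pair of bases and TTTC on the other, and its matches stand in capitals. Each sequence is the 250 bases before the gene's start (RefSeq, GRCm38.p6, 5′ to 3′ in the direction of the gene), for Isg15 at chr4:156200819-156201068 (minus strand), for Ifit1 at chr19:34640639-34640888 (plus strand) and for Ifit3 at chr19:34583279-34583528 (plus strand).
Isg15: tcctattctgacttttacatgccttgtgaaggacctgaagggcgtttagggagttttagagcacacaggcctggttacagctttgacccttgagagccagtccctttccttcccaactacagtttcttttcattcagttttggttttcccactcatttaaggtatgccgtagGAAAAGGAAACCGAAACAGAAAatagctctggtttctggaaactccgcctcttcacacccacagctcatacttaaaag
Ifit1: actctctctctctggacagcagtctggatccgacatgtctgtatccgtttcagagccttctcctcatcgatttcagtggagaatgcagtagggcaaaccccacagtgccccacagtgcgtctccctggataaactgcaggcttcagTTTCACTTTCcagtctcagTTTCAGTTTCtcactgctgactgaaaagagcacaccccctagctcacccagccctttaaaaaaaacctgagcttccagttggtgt
Ifit3: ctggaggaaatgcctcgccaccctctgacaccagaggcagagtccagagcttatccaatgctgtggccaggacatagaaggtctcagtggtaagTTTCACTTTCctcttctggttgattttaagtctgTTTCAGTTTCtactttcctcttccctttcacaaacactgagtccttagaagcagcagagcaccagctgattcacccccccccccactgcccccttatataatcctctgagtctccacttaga
The 3 matches of Isg15 overlap and begin at bases -78, -72 and -66 from the start, those of Ifit1 at -104 and -85, and those of Ifit3 at -156 and -122. The motif was present in a promoter of 10 of the 14 genes of the list that were matched (71.4%), against 367 of 11272 tested genes (3.26%).

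Ifit1, of the family that binds viral RNA, was at 0.584 and 0.284 FPKM at P7 and 13.3 and 12.2 at P21 (limma, change 3.26, adjusted p = 0.000739). Ifit3 rose from 1.25 ± 0.0717 to 21 ± 0.0938 FPKM, with 61.8% of its words shared with other genes. Ifi27l2a was at 9.79 and 4.62 FPKM at P7 and at 96.9 and 104 at P21, the most abundant of those with changes over 3. The antiviral synthetase gene Oas2 rose from 0.188 ± 0.0598 to 7.69 ± 0.454 FPKM, and Irf7, a transcription factor of the response, from 0.506 ± 0.0325 to 5.52 ± 0.153. Bst2 and Igtp lost their calls without each of the 4 libraries in turn, with changes of 0.889 to 1.073 and 1.259 to 1.312 (log2). Of the words of Igtp, 15.9% are shared. The members that did not pass were Ifit2, Gbp2 and Rsad2 (limma, adjusted p = 0.352, 0.46 and 0.262). In a fit of the 4 libraries alone these 3 passed as well (0.0214, 0.0177 and 0.0087).

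Of 17 tested genes of complement and antigen presentation, 11 rose and 6 did not pass, with a median of 0.83. H2-K1, a class I histocompatibility gene (ENSMUSG00000061232, chromosome 17, 33996017 to 34000347, minus strand), was at 4.97 and 5.5 FPKM at P7, 28.4 and 17.7 at P14, and 32.3 and 29.7 at P21. Its change was 2.36 ± 0.17 (log2, SE; limma, adjusted p = 3.81e-07), with 22.8% of its words shared. B2m, the light chain of class I molecules, rose from 188 ± 16.9 to 475 ± 12.7 FPKM. The class II genes H2-Eb1 and Cd74 rose from 0.805 ± 0.213 to 6.48 ± 0.622 and from 3.36 ± 0.263 to 10.3 ± 0.958. Among complement genes C7 rose from 1.66 ± 0.318 to 9.21 ± 0.465 FPKM and C4b from 0.431 ± 0.101 to 6.17 ± 0.861, with 48.3% of the words of C4b shared, while C3 did not pass, at 13.1 and 6.70 and at 7.96 and 5.39 FPKM. H2-D1 and H2-Aa lost their calls without each of the 4 libraries in turn, with changes of 0.817 to 0.853 and 1.004 to 1.093 (log2). Of the words of H2-D1, 26.9% are shared.

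Macrophage genes rose in 16 of 20 cases and 4 did not pass, with a median of 1.06 and a summed level of 97.8 and 94.9 FPKM at P7 and 325.9 and 302.6 at P21. Ctss, a lysosomal protease gene, was at 3.45 and 3.5 FPKM at P7 and at 27.5 and 21.9 at P21 (limma, change 2.51, adjusted p = 2.54e-05). C1qb, of the first complement component, rose from 6.62 ± 0.607 to 32.1 ± 3.73 FPKM, Mpeg1, a pore-forming defence gene, from 2.46 ± 0.297 to 18.1 ± 0.147, and the surface marker Adgre1 from 1.39 ± 0.00436 to 5.55 ± 0.569. Lyz2, the lysozyme gene, rose from 23.9 ± 0.196 to 99.9 ± 7.53, with 32.8% of its words shared. Mrc1, Cd163, Trem2 and Lgmn did not pass, though Cd163 did with quantile normalization (limma, adjusted p = 0.0218) and Trem2 in a fit of the 4 libraries alone (0.0288). Cd68 lost its call without P7 replicate 1 (adjusted p = 0.158), P21 replicate 1 (0.0559) or P21 replicate 2 (0.141).

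Lymphocyte genes stayed low. Of 11 tested, 2 rose and 9 did not pass, with a median of 0.16 and a summed level of 5.79 and 5.17 FPKM at P7 and 9.20 and 11.0 at P21. The T cell receptor component Cd3e was listed at 0 in both P7 libraries and at 0.0415 and 0.140 FPKM at P21. Ighm, an immunoglobulin heavy chain gene, rose from 2.14 ± 0.0952 to 4.75 ± 0.120, and Ptprc, the common leukocyte antigen, from 0.190 ± 0.0280 to 0.571 ± 0.00679. Ptprc was under 1 FPKM in all 4 libraries, and 1 gene of the list rose where at least 1 FPKM was required in 2 of them. It also lost its call without each library in turn, with changes of 0.376 to 0.424 (log2). The part of leukocyte numbers in the interferon and antigen presentation values was not tested.

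**Figure D5:**
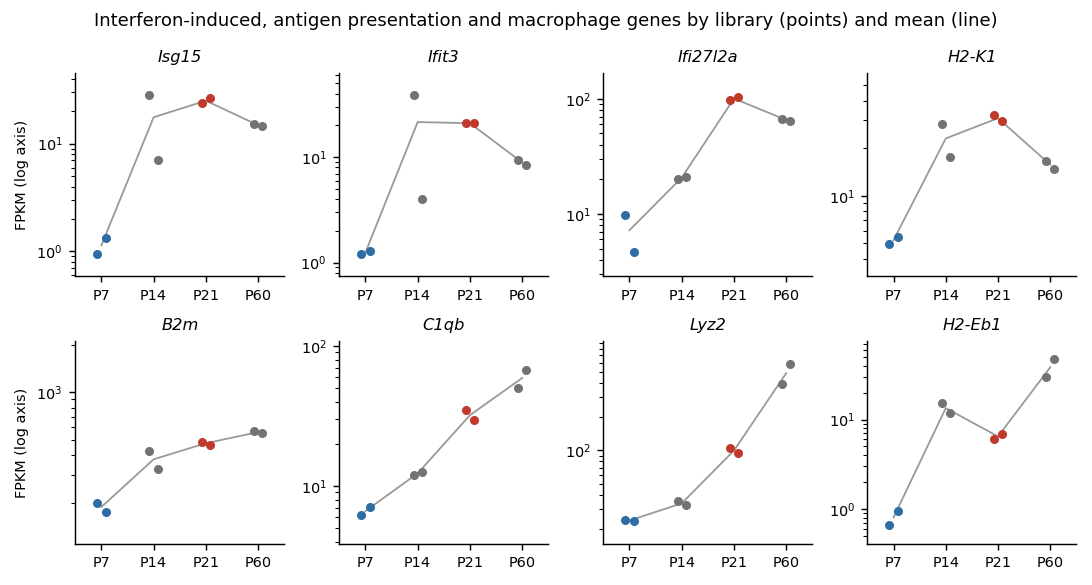
FPKM of 8 interferon-induced, antigen presentation and macrophage genes in each library (points) and the mean of 2 libraries (line) at P7, P14, P21 and P60, on logarithmic axes with ages evenly spaced whatever their distance in days. P7 is blue, P21 red and the others grey. Both P21 libraries lie above both P7 libraries in every panel, the P14 libraries of Isg15 and Ifit3 lie far apart from each other, and C1qb and Lyz2 are higher again at P60.

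Markers of tissue around the ovary were read as well. Of 12 fat cell genes, 3 fell and 1 rose, with a median of -1.62. Car3 was at 69.7 and 50.8 FPKM at P7, 33.8 and 180 at P14, and 11.5 and 0.397 at P21, and Fabp4 at 32.5 and 23.7, 13.5 and 75.2, and 3.69 and 0.746. The replicates of P14 and those of P21 lie far apart for both genes. Car3, Fabp4 and Retn lost their calls without P7 replicate 1 (adjusted p = 0.128, 0.081 and 0.139) or P21 replicate 2 (0.298, 0.128 and 0.167), and 1 gene fell without P7 replicate 2. Pparg, a nuclear receptor gene of fat cells that granulosa cells also express, rose from 3.63 ± 0.114 to 17.6 ± 0.558 FPKM (limma, adjusted p = 6.28e-07), and Ucp1 was listed at 0 in all 4 libraries.

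Of 11 oviduct and duct epithelium genes, 4 fell and 7 did not pass, with a median of -0.31, and 2 fell without P7 replicate 1 or P21 replicate 1. Cldn4, a tight junction gene, fell from 5.68 ± 0.192 to 1.17 ± 0.0740 FPKM. Pax8, a duct factor, fell from 0.811 ± 0.00944 to 0.260 ± 0.0455, under 1 FPKM at both ages. Among 8 skeletal muscle and nerve genes, 4 fell and 4 did not pass, with a median of -0.56. The nerve gene Th fell from 4.82 ± 0.266 to 1.09 ± 0.0924 FPKM. For 12 red cell genes limma called 0 at an adjusted p under 0.05 and 0 at an unadjusted p under 0.05, and their summed level was 96.9 and 119.5 FPKM at P7 and 81.9 and 77.2 at P21.

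Of 21 antioxidant and stress genes 3 rose and 3 fell, with a median of 0.05. Gsta4, a glutathione transferase gene, fell from 129 ± 15.8 to 70.6 ± 6.96 FPKM (limma, adjusted p = 0.000245). The genes that rose, Gpx3, Gsta2 and Gclc, lost their calls without P7 replicate 1 (adjusted p = 0.142, 0.139 and 0.144), P7 replicate 2 (0.13, 0.0575 and 0.114) or P21 replicate 1 (0.412, 0.134 and 0.154), and 1 gene rose without P21 replicate 2. Of the words of Gsta2, 60.7% are shared. Without P7 replicate 2 or P21 replicate 2, 1 gene fell.

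Immediate early and heat shock genes were higher in 9 of 19 cases and 10 did not pass, with a median of 0.87. Egr3 was at 0.211 and 0.0888 FPKM at P7 and at 2.82 and 2.94 at P21 (limma, change 1.76, adjusted p = 5.56e-05). Nr4a1, an orphan nuclear receptor gene, rose from 5.59 ± 0.718 to 13.1 ± 0.832 FPKM, and Jun from 11.0 ± 0.456 to 22.6 ± 1.80. Fos and Egr1 did not pass (limma, adjusted p = 0.0549 and 0.0686), and both passed with a replicate block (0.0464 and 0.0399). Egr1 also passed without P7 replicate 2 (0.0117). The heat shock gene Hspa1a rose from 1.52 ± 0.205 to 4.20 ± 0.186, with 70.1% of its words shared.

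The levels at P14 place the steps within the interval. Of the 407 genes higher by at least 1 (log2), 286 were nearer to their P7 level at P14 and 121 nearer to their P21 level, and of the 663 lower by at least 1, 621 were nearer to P7 and 42 to P21. All 13 maternal-effect genes and all 6 theca genes with such changes were nearer to P7, as most genes with such changes were. At P14, 11 and 4 of these lay beyond their P7 level, away from P21. The interferon-induced genes stood the other way, with 14 of 16 nearer to P21, as did 7 of 8 complement and antigen presentation genes, while 8 of 10 macrophage genes were nearer to P7. The P14 libraries were not alike in the interferon genes, with summed levels of 613.5 and 306.8 FPKM. The sums were 214.2 and 192.0 at P7 and 625.1 and 595.3 at P21. The sum of P14 replicate 2 thus lies nearer to P7, and the placement of these genes depends on P14 replicate 1.

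From P21 to P60, a comparison that shares the P21 libraries, 1099 genes were higher (6.82%) and 1080 lower (6.70%). The change from P21 to P60 differed from that between P7 and P21 for 2283 genes (14.2%) by the limma test of the difference. This number was 1001 without P21 replicate 1 and 1087 without P21 replicate 2. Wnt4 returned to 43.8 and 38.5 FPKM at P60 (limma, change from P21 1.68, adjusted p = 3.39e-06), and its difference between the intervals was 3.36 (adjusted p = 6.97e-07). Grem1 was at 22.5 and 24.3 FPKM at P60, a change from P21 of -0.73 that did not pass (limma, adjusted p = 0.052). Cyp11a1 stood at 621 and 677 FPKM at P60 (limma, change 1.80, adjusted p = 0.0162), while Insl3 fell to 16.7 and 13.1 and Ihh to 11.3 and 11.1. The maternal-effect genes had a summed level of 241.2 and 243.7 FPKM at P60, next to 287.2 and 337.7 at P21, and that of the macrophage genes was 922.3 and 1221.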

How the data were processed

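RNA of whole ovaries was read as FPKM, which the authors deposited in 1 table of 34745 genes for the 22 libraries. HISAT2, StringTie, edgeR and the mm10 build are named, per the submitters' processing notes, while the series text names TopHat; no source used here gives their versions or the annotation. Libraries were grouped by the age in their labels. Tests were made by limma (version 3.58.1, run in R 4.3.3) on log2(FPKM + 1) values (trend on the mean, 22 libraries, age as a factor of 11 levels, 11 residual degrees of freedom) for the 16117 genes with at least 1 FPKM in 2 libraries, with Benjamini-Hochberg adjustment and a threshold of 0.05. Fold changes on this scale understate the change of low genes. No count test was run, since whole reads were recovered only for genes with 1 transcript, of which 94.6% to 95.8% of the values checked in the P7 and P21 libraries came within 0.02 of a whole number of reads; depths are estimates from these. FPKM hold no counts, so no counting interval is given.

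The members and the 36 lists were chosen with earlier results of these data known. Genes were named by rule as the 8 largest called increases and decreases without overlap that reach 10 FPKM, the 3 largest called members of each list, and key genes of the follicle; other list members are given for their values and were chosen after these were seen. A gene is called uncertain from the share of its 31-base words found in transcripts of other genes (GENCODE M21, 600 genes checked). Promoters are from RefSeq, without those on chromosome 18, and a gene with several promoters counts if any of them holds the motif. Replicate numbers were taken as names only. Simulated data had the spread of the real genes over all ages. Changes were given only to genes above a set mean level, so recovery of low genes is not covered. Far fewer genes were changed there than were called in the real data, so the adjustment was stricter. There limma recovered 38 of 50 genes lowered by 1 (log2), 18 of 50 raised by 0.5, 46 of 50 raised by 1 and 50 of 50 raised by 2. It made 4 false calls among the unchanged of the 16117 genes. Alternatives changed the pseudocount, the filter, the scaling, the libraries in the fit and the replicate block, and left out each library in turn. Some genes of the lists are counted but not reported here by name.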

Additional observations from a re-analysis of the deposited data

How the results depend on the processing

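Leaving out each library in turn gave 943 to 1032 genes higher at P21 and 1657 to 1821 lower, of which 385 to 407 and 633 to 681 changed by at least 1 (log2), and 1001 to 1848 genes whose change differed between the intervals. With log2(FPKM + 0.1), 672 genes were higher and 1367 lower by at least 1, against 407 and 663. The other alternatives gave 1310 to 1954 higher, 2156 to 3204 lower and 1870 to 3416 differing between the intervals. With a replicate block 1438 genes were higher and 2496 lower, but the numbers only name the libraries: the deviations of same-numbered P7 and P21 libraries correlated at -0.024. Of 117 named genes called, 24 lost the call without 1 of the 4 libraries and 26 under any alternative, and of the 91 that changed by at least 1, 11 did so without 1 library. Of 17 named genes not called, 8 passed under an alternative. Among named genes, 0 reversed in direction where either fit called them. The lists were compared by their counts only, and some moved, such as cholesterol genes higher from 1 to 9 without the Y2 libraries. The main fit, with 2 libraries an age, estimated the spread over all 22 and had 11 residual degrees of freedom. The 4 libraries alone leave 2, and a fit of these called 1734 genes higher and 2746 lower. In the simulated data, 18 of 50 genes raised by 0.5 (log2) were recovered. Few genes were changed there, so the recovery of small changes in the real data is not known.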
